A study of Mus musculus with 9 samples.

Results

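The 8 genes described here encode proteins that are linked to T cell anergy, and they were taken by symbol from a table of 41978 genes in which all 8 were found. They are Nt5e and Izumo1r, which encode the surface proteins CD73 and FR4, the E3 ubiquitin ligase genes Cblb, Itch and Rnf128, the diacylglycerol (DAG) kinase genes Dgka and Dgkz, and Ubash3b, which encodes STS-1. Their levels were measured by bulk RNA-seq in 9 samples of sorted thymocytes, 3 from each of 3 groups named GFPlo, GFPmed and GFPhi. All samples carried the same genotype, Nur77-eGFP BAC Tg, in which GFP is made under the control of Nr4a1 sequences on a bacterial artificial chromosome and reports T cell receptor (TCR) signaling. There was no treatment, and the groups differed in their GFP level alone as a sorting criterion, each holding about 10% of the GFP distribution at its low, medium or high end, with 10000 cells sorted per sample. The shared gate was live CD25- CD69+ CD24+ CD4+ CD8- semimature CD4 single-positive (SP4) thymocytes by the labels, while the study gives CD24lo in one place and CD24hi in another. The age and sex of the mice of each sample, and whether samples of different groups came from the same mice, are not stated in the sources used here. Where samples shared a source, p-values measure the spread between these samples and no more.

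Anergy is a state in which a T cell that met antigen without costimulation responds poorly to it later, and it is kept up in part by enzymes that cut short the signals downstream of the TCR. E3 ligases attach ubiquitin to signaling proteins and mark them for degradation or relocation, and DAG kinases phosphorylate DAG, the lipid that recruits RasGRP1 and protein kinase C theta. CD73 turns extracellular AMP into adenosine, and high CD73 together with high FR4 is used to sort anergic CD4 T cells. The comparison of GFPhi with GFPlo asks which of these genes differ between thymocytes with much and with little recent TCR signaling, as marked by the reporter.

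Reads on genes ranged from 7465552 to 14943774 per sample. For Nr4a1, which the reporter follows, the mean was 217 TPM (SD 32, n = 3) in GFPlo, 374 (SD 29) in GFPmed and 840 (SD 75) in GFPhi, with no overlap between any groups. The summed level of 8 genes of SP4 identity lay between 7309 and 8697 in every sample on the scale of exonic-length TPM, which is explained below. Trac alone made up 3020 to 3988 of this sum, so the sum says little about the other genes. Of this list Cd69 fell, from 324, 380 and 420 TPM in GFPlo to 184, 240 and 223 TPM in GFPhi samples, and 0 genes passed as higher. The summed level of 5 regulatory T cell genes was 34.2 to 40.2 in GFPlo, 37.3 to 45.8 in GFPmed and 115 to 131 in GFPhi samples, and Foxp3, Ikzf4 and Il2ra of this list rose. The summed level of 6 genes of double-positive or CD8 thymocytes was 215 to 231 in GFPlo, 184 to 192 in GFPmed and 113 to 135 in GFPhi samples, where Cd8a, Cd8b1 and Dntt fell and Runx3 rose. The part of either cell type in the results below was not tested, and in bulk samples a change in the number of cells that express a gene cannot be told apart from a change in RNA per cell.

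The start regions of 3 of the genes that rose are shown because they differ in the density of CpG dinucleotides, the sites of DNA methylation. Each window runs from 250 bases before the annotated start to 50 after it on the strand of the gene, from RefSeq on GRCm38.p6, with every CpG in capitals. The windows are chr9:88327359-88327658 on the plus strand for Nt5e, chr16:52031299-52031598 on the plus strand for Cblb and chr9:14903718-14904017 on the minus strand for Izumo1r.
Nt5e: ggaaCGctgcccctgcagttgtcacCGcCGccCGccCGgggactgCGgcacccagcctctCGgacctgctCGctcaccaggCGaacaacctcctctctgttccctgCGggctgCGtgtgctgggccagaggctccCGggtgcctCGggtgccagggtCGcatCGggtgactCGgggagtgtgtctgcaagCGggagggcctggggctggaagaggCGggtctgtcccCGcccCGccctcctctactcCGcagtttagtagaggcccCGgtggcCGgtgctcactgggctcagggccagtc
Cblb: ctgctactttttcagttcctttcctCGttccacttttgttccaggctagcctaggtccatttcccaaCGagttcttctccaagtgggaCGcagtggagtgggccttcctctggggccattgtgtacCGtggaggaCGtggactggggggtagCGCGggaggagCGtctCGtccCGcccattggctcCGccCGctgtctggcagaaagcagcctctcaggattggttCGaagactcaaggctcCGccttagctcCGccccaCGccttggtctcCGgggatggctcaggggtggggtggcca
Izumo1r: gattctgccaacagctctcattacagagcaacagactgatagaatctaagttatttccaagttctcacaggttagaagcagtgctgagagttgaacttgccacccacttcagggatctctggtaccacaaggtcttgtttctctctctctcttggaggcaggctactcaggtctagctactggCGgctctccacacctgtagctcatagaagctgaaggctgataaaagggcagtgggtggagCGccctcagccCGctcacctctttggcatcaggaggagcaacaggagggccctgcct
Nt5e held 23 CpG and Cblb 17, whereas Izumo1r held 3, and the median over all 32851 windows of this length was 7. Windows were found for 7 of the 8 genes, 12 windows in all, and Itch had none. None of the 12 windows held AAAGGTCA, the site that NR4A proteins bind as monomers, on either strand, against 1.51% of all windows. TGACTCA, an AP-1 site, was in 0 of 12 windows and in 5.20% of all, and the EGR sites GCGGGGGCG and GCGTGGGCG, also in 0 of 12, were in 2.91% and 0.612% of all. TGGAAA, the core bound by NFAT, was in 6 of the 12 windows and in 21.4% of all. The 6 windows belong to Dgka with 3, Ubash3b with 2 and Izumo1r with 1, and the windows of Dgka and of Ubash3b are alternative starts of the same gene. Both strands were searched for every motif, and none of these motifs contains another. A match of letters is not a measured binding site.

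Between GFPhi and GFPlo, Nt5e, Cblb, Dgka and Izumo1r rose, while Dgkz, Ubash3b and Itch did not pass the test and Rnf128 was too low to be tested. Each gene was tested with limma on log2(TPM + 1) over all 9 samples, and it passed when its p, adjusted by Benjamini-Hochberg over the 30693 genes with at least 1 TPM in at least 3 samples, did not exceed 0.05. Of the 8 genes 7 were tested, and 4 passed as higher and 0 as lower, where 2.38% of all genes tested passed as higher and 1.51% as lower. All 6 with an unadjusted p under 0.05 were higher, where 4244 of the 30693 genes tested had such a p in either direction. With limma-voom, a test on reads, 6 of the 7 passed as higher and 0 as lower, where 3.28% of all genes did so as higher. Nt5e and Cblb also had a log2 fold change of at least 1, the limit the study sets for a differentially expressed gene (DEG), which 1.26% of all genes tested passed as higher. By TPM, 6 of the 8 genes had all GFPhi samples above all GFPlo samples, as did 8.26% of all genes tested. The median log2 fold change was 0.69 over the 7 genes tested and -0.09 over all genes tested.

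**Figure D1:**
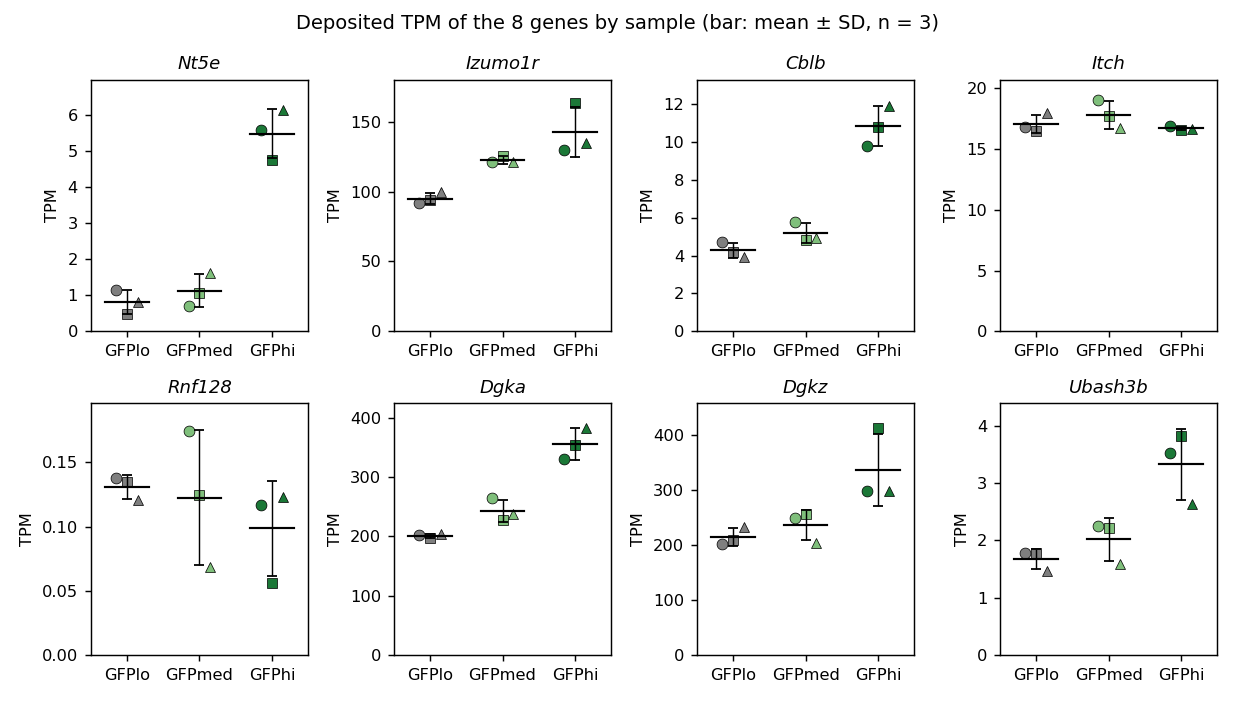
Deposited TPM (vertical axes, linear and starting at 0) of the 8 genes in the 3 GFPlo, 3 GFPmed and 3 GFPhi samples; circles, squares and triangles are replicates 1, 2 and 3, and lines with bars give the mean ± SD. GFPhi samples of Nt5e, Izumo1r, Cblb, Dgka, Dgkz and Ubash3b lie above all GFPlo samples, while those of Itch and Rnf128 overlap them.

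Nt5e showed the largest rise of the 8 genes. It encodes CD73, the enzyme on the cell surface that makes adenosine from AMP, and lies on chromosome 9 of GRCm38 from 88327197 to 88372092 on the plus strand (ENSMUSG00000032420.8). Nt5e had 1.14, 0.485 and 0.822 TPM in the GFPlo samples, 0.699, 1.05 and 1.61 TPM in the GFPmed samples, and 5.58, 4.76 and 6.13 TPM in the GFPhi samples. GFPlo and GFPmed overlapped, and all 3 GFPhi samples stood apart above them. Mean TPM was 6.72-fold higher in GFPhi than in GFPlo and 4.91-fold higher than in GFPmed. In log2(TPM + 1), a scale that compresses changes of low genes, GFPhi exceeded GFPlo by 1.85 (SE 0.25, limma adjusted p = 0.00647) and GFPmed by 1.63 (limma adjusted p = 0.0215). Against GFPmed the call was lost in 7 of 18 alternative ways of processing, which are given below. Whole reads could be solved from the table, and Nt5e rested on 34, 18 and 28 reads in GFPlo, 40, 37 and 48 in GFPmed, and 267, 199 and 234 in GFPhi samples. On these reads limma-voom gave a log2 fold change of 2.87 (95% confidence interval 2.15 to 3.59) between GFPhi and GFPlo.

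These counts place Nt5e at the level of silent genes in 2 of the groups. Olfactory and vomeronasal receptor genes, 1549 in the table and not used by thymocytes, received between 2247 and 4856 RPM in all, so a few reads are no sign that a gene is transcribed. Per exonic length, Nt5e lay at percentiles 38.0 to 68.9 of these receptor genes in the 6 GFPlo and GFPmed samples. In the 3 GFPhi samples it lay at percentiles 91.6 to 97.9. Nt5e thus lay above the bulk of the receptor genes in the GFPhi samples and within them elsewhere.

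Izumo1r rose by less, and the larger part of its mean difference lay between GFPlo and GFPmed, though neither step passed on its own. It encodes FR4, a member of the folate receptor family that marks regulatory and anergic CD4 T cells, and lies on chromosome 9 from 14885814 to 14903949 on the minus strand (ENSMUSG00000031933.17). Izumo1r had 91.6, 93.7 and 99.6 TPM in the GFPlo samples, 121, 126 and 121 TPM in the GFPmed samples, and 130, 163 and 135 TPM in the GFPhi samples. The 3 groups lay in order with no overlap, a pattern also met by Cblb and Dgka and by 1.67% of all genes tested. GFPhi exceeded GFPlo by 0.58 on the log2 scale (SE 0.090, limma adjusted p = 0.0131). Without GFPlo replicate 2 the log2 difference was 0.57 and the call was lost (limma adjusted p = 0.0594), as it was under median-of-ratios scaling (0.64, limma adjusted p = 0.111). The log2 difference between GFPmed and GFPlo, 0.37, was 63.7% of that between GFPhi and GFPlo, the largest share among the 6 genes whose log2 fold change exceeded 0.5, and that of Nt5e was 11.7%. For Izumo1r the step from GFPlo to GFPmed had a limma adjusted p of 0.561. The step from GFPmed to GFPhi, 0.21, had a limma adjusted p of 0.469. Neither the difference between the 2 steps nor that between the shares of Izumo1r and Nt5e was tested.

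Among the E3 ligase genes, Cblb rose, Itch did not pass the test and Rnf128 was near the level of silent genes. Cblb encodes CBL-B, which restrains signaling through the TCR and CD28 and whose loss lets T cells respond without costimulation, and lies on chromosome 16 from 52031225 to 52208048 on the plus strand (ENSMUSG00000022637.11). Cblb had 4.73, 4.20 and 3.95 TPM in the GFPlo samples, 5.79, 4.83 and 4.94 TPM in the GFPmed samples, and 9.82, 10.8 and 11.9 TPM in the GFPhi samples. All groups were in order with no overlap, with the wider gap between GFPmed and GFPhi. GFPhi exceeded GFPlo by 1.16 on the log2 scale (SE 0.16, limma adjusted p = 0.00821) and GFPmed by 0.94 (limma adjusted p = 0.0384). The latter call was lost when any 1 of the 9 samples was left out, with limma's adjusted p then between 0.055 and 0.171.

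Itch, which encodes a ligase that limits JunB and T helper 2 responses, lies on chromosome 2 from 155133509 to 155226855 on the plus strand (ENSMUSG00000027598.16). Itch had 16.9, 16.5 and 17.9 TPM in the GFPlo samples, 19.0, 17.7 and 16.8 TPM in the GFPmed samples, and 16.9, 16.6 and 16.6 TPM in the GFPhi samples. The values of all groups overlapped. GFPhi minus GFPlo was -0.03 on the log2 scale (95% confidence interval -0.26 to 0.19, adjusted p = 0.947 from limma), and its sign turned under other scalings.

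Rnf128, which encodes GRAIL, a ligase of the endosomal membrane that is induced in anergic T cells, lies on chromosome X from 139563316 to 139673145 on the plus strand (ENSMUSG00000031438.11). Rnf128 had 0.138, 0.134 and 0.121 TPM in the GFPlo samples, 0.174, 0.125 and 0.0689 TPM in the GFPmed samples, and 0.116, 0.0561 and 0.123 TPM in the GFPhi samples. Between 7 and 34 reads stood behind each value, and per exonic length Rnf128 lay at percentiles 42.2 to 63.1 of the receptor genes. On TPM recomputed per exonic length, where it passed the filter, GFPhi minus GFPlo was -0.27 in log2 units (95% confidence interval -1.02 to 0.49, limma adjusted p = 0.867). The upper bound is a 1.41-fold rise in the recomputed TPM + 1, which is a larger fold in TPM itself for so low a gene. These samples do not exclude a difference within this interval.

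Both DAG kinase genes were abundant, and Dgka rose while Dgkz missed the threshold. Dgka encodes DGK alpha, which is held down when T cells are fully activated, and lies on chromosome 10 from 128720134 to 128744855 on the minus strand (ENSMUSG00000025357.8). Dgka had 202, 197 and 204 TPM in the GFPlo samples, 264, 228 and 237 TPM in the GFPmed samples, and 330, 354 and 384 TPM in the GFPhi samples. The groups were in order with no overlap. GFPhi exceeded GFPlo by 0.82 on the log2 scale (SE 0.076, limma adjusted p = 0.00122) and GFPmed by 0.55 (limma adjusted p = 0.0148). The call against GFPmed was lost in 7 of 19 alternative ways of processing, which are given below. Of its exonic bases, 105 (2.20%) are shared with Pmel on the other strand, and the strand setting of the counting is not given in the sources used here.

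Dgkz encodes DGK zeta, the other main DAG kinase of T cells, and lies on chromosome 2 from 91932824 to 91975864 on the minus strand (ENSMUSG00000040479.12). Dgkz had 201, 208 and 233 TPM in the GFPlo samples, 248, 255 and 204 TPM in the GFPmed samples, and 299, 412 and 297 TPM in the GFPhi samples. All GFPhi samples lay above the others, and GFPhi replicate 2 stood well above its 2 partners. GFPhi minus GFPlo was 0.63 on the log2 scale (95% confidence interval 0.29 to 0.97), with an adjusted p of 0.0624 from limma. It passed on the solved reads with limma-voom, at 0.69 with an adjusted p of 0.00148. Dgkz shares 222 exonic bases (3.54%) with Gm9821 on the other strand.

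Ubash3b encodes STS-1, a phosphatase that removes phosphate from ZAP-70 and SYK after TCR engagement, and lies on chromosome 9 from 41011098 to 41161697 on the minus strand (ENSMUSG00000032020.15). Ubash3b had 1.78, 1.78 and 1.46 TPM in the GFPlo samples, 2.25, 2.22 and 1.58 TPM in the GFPmed samples, and 3.52, 3.81 and 2.63 TPM in the GFPhi samples. The GFPhi samples lay above all others, while GFPlo and GFPmed overlapped. GFPhi minus GFPlo was 0.69 on the log2 scale (95% confidence interval 0.20 to 1.18, limma adjusted p = 0.161). From 187 to 670 reads stood behind each value, and on these reads the log2 fold change was 1.03 with an adjusted p of 0.00049 from limma-voom.

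**Figure D2:**
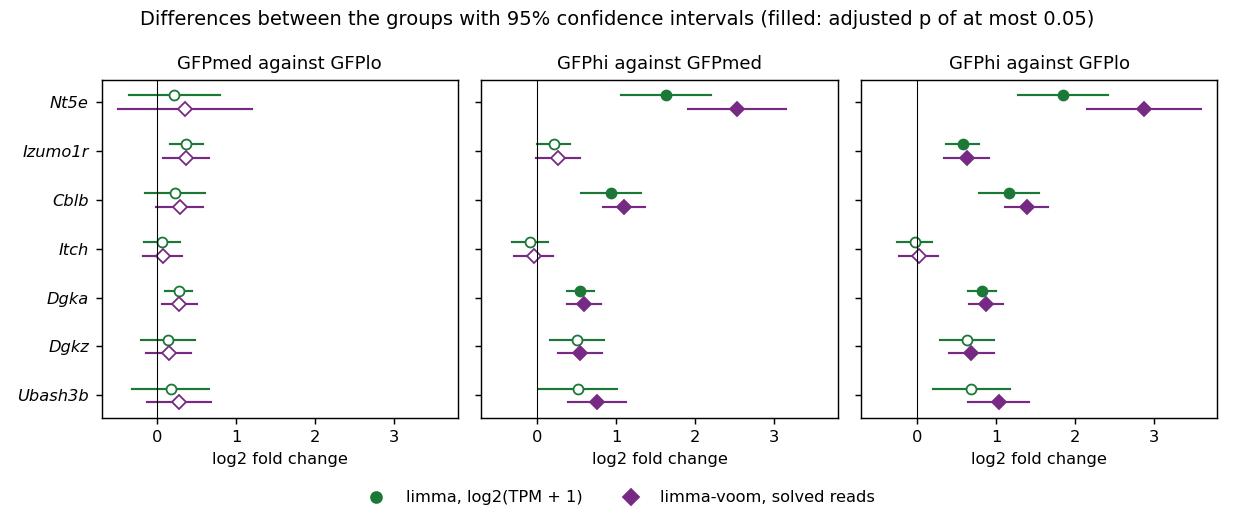
Log2 fold changes (horizontal axes) of the 7 genes tested in the 3 comparisons, with 95% confidence intervals as lines; green circles are limma on log2(TPM + 1), purple diamonds limma-voom on the solved reads, and filled symbols have an adjusted p of at most 0.05. In GFPhi against GFPlo 4 genes passed with limma and 6 with limma-voom, and in GFPmed against GFPlo 0 genes passed with either.

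Between GFPmed and GFPlo, 0 of the 7 genes tested passed with limma or with limma-voom, where 0.0717% and 0.102% of all genes passed as higher. At an unadjusted p under 0.05 limma counted 2, Izumo1r with a log2 difference of 0.37 (adjusted p = 0.561) and Dgka with 0.27 (adjusted p = 0.686), where 4.67% of all genes tested had such a p in either direction. All 7 log2 fold changes were above 0, with a median of 0.22 against -0.005 over all genes tested. By TPM the GFPmed samples of Izumo1r, Cblb and Dgka lay above all GFPlo samples, as did those of 5.55% of all genes tested. Between GFPhi and GFPmed 3 of 7 genes passed as higher, Nt5e, Cblb and Dgka, where 0.899% of all genes tested did, and Nt5e also reached a log2 fold change of at least 1, as 0.541% did. With limma-voom 5 of 7 passed as higher, Dgkz and Ubash3b besides these, where 1.83% of all genes did. With the replicate number as a block, the 3 limma calls between GFPhi and GFPmed were lost, as given below. The 3 comparisons share samples, so they are not independent of each other.

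The order of the genes by level was compared on TPM recomputed from the solved reads and the exonic length, because the length behind the deposited TPM includes introns and differs between genes for that reason. By this exonic-length TPM, Dgka was highest in GFPlo with 410 ± 7.7, followed by Dgkz with 296 ± 24, Izumo1r with 185 ± 8.3, Itch with 61.1 ± 2.8, Cblb with 29.4 ± 2.7 and Ubash3b with 11.8 ± 1.3. Rnf128 with 1.68 ± 0.12 and Nt5e with 1.24 ± 0.50 overlapped in GFPlo and again in GFPmed, and no other neighbours in the order overlapped within a group. In GFPhi the order of Cblb and Itch changed, and Nt5e and Rnf128 no longer overlapped. Cblb reached 74.0 ± 7.3 and lay above Itch at 59.6 ± 1.3, and Nt5e reached 8.29 ± 1.1 and lay above Rnf128 at 1.26 ± 0.48, each without overlap. Nt5e remained below Ubash3b, which had 23.4 ± 4.1 in GFPhi.

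**Figure D3:**
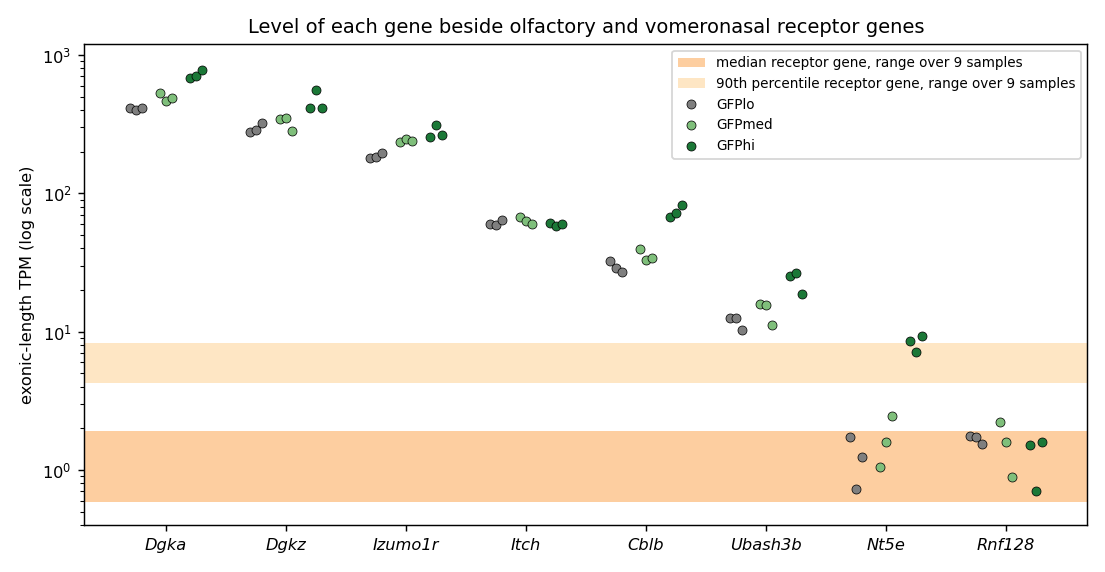
Exonic-length TPM (vertical axis, log scale) of the 8 genes in each sample, grey for GFPlo, light green for GFPmed and dark green for GFPhi, beside bands that give the range over the 9 samples of the median and of the 90th percentile of 1549 olfactory and vomeronasal receptor genes. Rnf128 sits near the band of the median in all groups, and Nt5e does so in GFPlo and GFPmed but reaches 7.06 to 9.32 in GFPhi.

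Each of 4 genes was set against its nearest relative or partner within the same sample. Cblb rose relative to Cbl, its close relative in TCR signaling. Cbl had 12.9 ± 1.4 TPM in GFPlo and 10.3 ± 1.2 TPM in GFPhi (log2 fold change -0.30, adjusted p = 0.385 from limma). The within-sample difference of Cblb minus Cbl in log2(TPM + 1) moved by 1.46 between GFPlo and GFPhi, with no overlap. Nt5e moved by 1.82 relative to Entpd1, which encodes CD39, the enzyme that supplies AMP to CD73. Entpd1 had 0.741 ± 0.25 TPM in GFPlo and 0.790 ± 0.43 TPM in GFPhi. Per exonic length it had 2.02 to 6.23, below the 90th percentile of the receptor genes in each sample. Entpd1 was thus not told apart from silent genes, and this pair shows little beyond the rise of Nt5e. For the pairs of Cblb and of Nt5e, p was 0.1 by an exact permutation test (two-sided), the smallest that 3 samples against 3 allow. It was 0.2 after adjustment over the 4 pairs.

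Dgka moved by 0.18 relative to Dgkz (exact permutation p = 0.5, two-sided), so a difference in the rise of the 2 kinases was not separated from the spread. Ubash3b moved by 0.26 relative to Ubash3a (exact permutation p = 0.3, two-sided), and by 0.51 with a pseudocount of 0.1 in place of 1 (exact permutation p = 0.1). Ubash3a, which encodes STS-2, was itself higher in GFPhi, with 143 ± 2.0 TPM in GFPlo and 192 ± 8.2 TPM in GFPhi (log2 fold change 0.42, adjusted p = 0.0047 from limma). Per exonic length Ubash3a had 106 ± 1.6 in GFPlo, above the 11.8 ± 1.3 of Ubash3b.

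**Figure D4:**
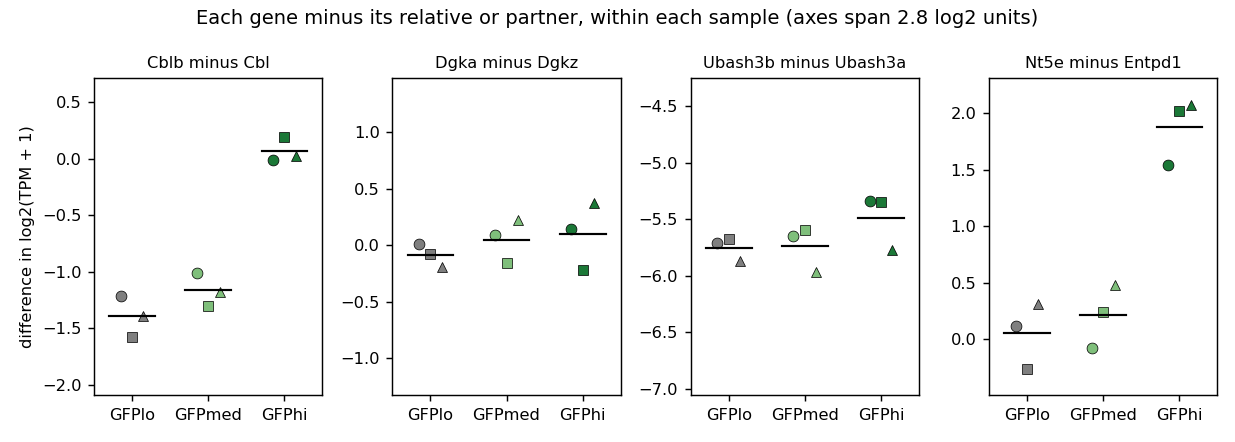
Difference in log2(TPM + 1) between each gene and its relative or partner within each sample (vertical axes, all spanning the same distance); symbols are replicates 1 to 3 and lines are group means. Cblb minus Cbl and Nt5e minus Entpd1 are higher in all 3 GFPhi samples than in any GFPlo sample, and Dgka minus Dgkz overlaps between the groups.

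Other genes of the same pathways were counted in 8 lists that hold 100 genes, of which 90 were tested. Between GFPhi and GFPlo 21 rose and 7 fell, where 2.38% of all genes tested passed as higher and 1.51% as lower. These shares also stand beside the counts of each list below. The 21 include Nr4a1, whose reporter defined the groups. The median log2 fold change was 0.02 against -0.09 over all genes tested. Between GFPmed and GFPlo 0 passed with limma and 17 of 90 had an unadjusted p under 0.05, against 4.67% of all genes tested, and limma-voom called 1, Nr4a1.

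Of 19 other E3 ligases and adaptors tested, Neurl3, Tnfaip3, Peli1 and Ndfip1 rose and Nedd4 fell. Neurl3 had 0.588 ± 0.49 TPM in GFPlo and 17.2 ± 1.4 TPM in GFPhi (log2 fold change 3.56, adjusted p = 0.000343 from limma), the largest rise in any of the 8 lists. Tnfaip3, which encodes the NF-kB inhibitor A20, had a log2 fold change of 0.83, and Peli1, a ligase that limits NF-kB signaling in T cells, of 0.79. Ndfip1, which encodes an activator of ITCH and NEDD4 family ligases, rose by 0.52, whereas Nedd4 itself fell by 0.95 on the log2 scale. Among the targets of CBL-B, ITCH and GRAIL, of which 14 were tested, Foxo1 (0.90) and Pik3r1 (0.55) rose and Jun, a target of ITCH, fell (-1.89).

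Of the 4 other DAG kinase genes tested, Dgkd rose, with a log2 fold change of 0.48. Of 14 genes that make DAG or act on its signal, Rasgrp2 (1.14), Prkcd (0.77) and Plcg1 (0.56) rose, and Rasgrp1 (-0.48) and Prkcq (-0.48) fell. Rasgrp1 and Prkcq encode the DAG-bound activator of Ras and protein kinase C theta, and Plcg1 encodes the phospholipase that makes DAG after TCR engagement. Rasgrp1 had 130 ± 4.1 TPM in GFPlo and 93.7 ± 6.3 TPM in GFPhi, with no overlap.

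Of 12 other genes of the adenosine pathway tested, Slc28a2, which encodes a nucleoside carrier, rose (0.62). Adora2a, the main adenosine receptor of T cells, had a log2 fold change of 0.52 and did not pass (adjusted p = 0.310 from limma). Of the 4 folate receptor and carrier genes other than Izumo1r, 0 passed with limma or limma-voom and 0 had an unadjusted p under 0.05. Of the 10 phosphatases and relatives of Ubash3b tested, Ptpn22 (0.78), Ptprc (0.46) and Ubash3a rose.

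Of 13 transcription factor genes linked to anergy, 7 rose and 3 fell. The 3 Nr4a genes were among those that rose, and Nr4a1 is the gene whose reporter defined the groups. Ikzf2, which encodes HELIOS, went from 1.55 ± 0.064 TPM in GFPlo to 15.6 ± 1.1 TPM in GFPhi, the largest rise of this list. Egr3 (0.86), Nfatc1 (0.70) and Nfatc3 (0.45) also rose, and Egr2 (-0.90), Tox (-0.70) and Tox2 (-1.10) fell. Egr2 and Egr3, both of which are known to activate Cblb, thus went in opposite directions, with Egr2 at 391 ± 4.2 TPM in GFPlo and 209 ± 16 TPM in GFPhi samples.

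The genes whose pattern over the 9 samples was most like that of each member were found by Pearson correlation of log2(TPM + 1) among the genes with a mean of at least 5 TPM, 9950 or 9951 for each. Cblb was most like P2rx7 (r = 0.994), Ptpn22 (0.993) and Irak2 (0.991). Dgka was most like Ubash3a, Add3 and Cish (0.992 each), and genes most like Dgkz included Ube2q2 (0.986) and Pink1 (0.985). Nt5e was most like Sms, Penk and Klhdc3 (0.985, 0.985 and 0.984), and Penk had 0.764 TPM in GFPlo and 15.9 TPM in GFPhi on average. Izumo1r was most like Sdf4 (0.978), Zfp36l1 (0.977) and Rasal1 (0.975), Ubash3b most like Nfkb1, Jak2 and Wdr26 (0.973, 0.967 and 0.965), and genes most like Itch included Baz1b (0.958) and Ifi30 (0.922). With 9 samples in 3 groups a high r follows from any shared order of the groups, and no p is given for these values.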

How the data were processed

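RNA was read from 9 samples of sorted SP4 thymocytes, and samples were grouped by their labels. The authors trimmed reads, aligned them with STAR 2.7.11b to GRCm38 with GENCODE genes, removed duplicates and converted counts per gene to the deposited TPM. A mean signal per group was deposited too, which the authors made by dividing reads by DESeq2 1.34.0 size factors. The table's log2 fold changes, adjusted p-values and call columns of the authors were not used, and 0 sample columns were left unused. TPM and group signals together gave whole reads for 41578 of 41978 genes, with 100% of values whole within 0.01 reads and 400 genes not solved. Total reads on genes ranged from 7465552 to 14943774, and because reads carry no molecular identifiers, counting error is only part of their error. The length behind TPM was the average genomic span of a gene's transcripts for 98.3% of 41439 genes in GENCODE annotation of an earlier release (M21), so levels of different genes were compared on TPM recomputed from the reads and exonic length.

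log2(TPM + 1) was fitted with limma 3.58.1 in R 4.3.3 over all 9 samples, with an eBayes trend and no block, for genes with at least 1 TPM in at least 3 samples. P-values were Benjamini-Hochberg adjusted over all genes tested. A gene passed at an adjusted p of at most 0.05 and was a DEG if it also changed by at least 1 on the log2 scale. Pairs of genes were compared with exact permutation tests (scipy). The fit was tested on simulated data. Alternatives were a pseudocount of 0.1, no filter, a filter of 5 TPM, median-of-ratios and quantile scaling, only the 2 groups compared, a replicate block, no trend, no fold limit, limma-voom on the solved reads and each sample left out. TPM on exonic length was added after seeing the data. Named were all 8 genes, Nr4a1, the list genes that passed between GFPhi and GFPlo, 3 relatives, and for each member with a mean of at least 1 TPM the 3 genes most like it, with symbols that start with Gm or end in Rik left out and 2 of these genes not reported here; Adora2a was chosen after its values were seen. The members and lists were chosen with earlier results of these data known. Of 158 symbols looked up, 155 were found.

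Marker lists of other cells were summed per sample. Between GFPhi and GFPlo 0 genes passed with limma or limma-voom among the lists for gamma delta T, NKT or NK cells, B cells, myeloid or dendritic cells and red cells, where 1 red cell gene had an unadjusted p under 0.05, while Epcam of thymic epithelium or stroma passed as higher and Cd69 of SP4 identity as lower.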

Additional observations from a re-analysis of the deposited data

How the results depend on the processing

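Between GFPhi and GFPlo the rises of Nt5e, Cblb and Dgka passed under every alternative in which they were tested (at a filter of 5 TPM Nt5e was not tested, nor was Ubash3b), with log2 fold changes of 1.71 to 2.87, 1.10 to 1.38 and 0.76 to 0.88. Izumo1r lost its call under median-of-ratios scaling (adjusted p = 0.111), with only the 2 groups (0.0682), without the trend (0.0642) and without GFPlo replicate 2 (0.0594). Dgkz passed at a filter of 5 TPM (0.045), with quantile scaling (0.0328), limma-voom (0.00148) and exonic length (0.0267), and Ubash3b with limma-voom (0.00049) and exonic length (0.027). Itch turned from -0.031 to 0.024 with median-of-ratios scaling, 0.012 with quantile scaling and 0.020 with limma-voom, and ran from -0.055 to 0.0019 with 1 sample left out, above 0 without GFPlo replicate 3. Between GFPhi and GFPmed the call of Cblb was lost in 14 of 19 alternatives, of Dgka in 7 of 19 and of Nt5e in 7 of 18. Leaving out 1 sample accounts for 9, 3 and 4 of these. Cblb also lost its call with no filter (adjusted p = 0.0539), median-of-ratios (0.0717) or quantile scaling (0.105) and only the 2 groups (0.107), Dgka with median-of-ratios scaling (0.121), only the 2 groups (0.0722) and no trend (0.107), and Nt5e with a pseudocount of 0.1 (0.0539) and only the 2 groups (0.0667), all from limma, and each lost it with the replicate block, given below. Dgkz (0.02) and Ubash3b (0.0131) passed there with limma-voom. The cause of these changes was not tested.

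The 511 genes called as DEG between GFPhi and GFPlo became 1194 with no fold limit. The 18 between GFPmed and GFPlo became 29 with a pseudocount of 0.1, 10 with median-of-ratios scaling, 8 without the trend and 2 to 18 with 1 sample left out. The 212 between GFPhi and GFPmed became 340 with limma-voom, 463 with no fold limit and 115 to 209 with 1 sample left out. Of the 8 genes, the 2 DEG between GFPhi and GFPlo became 1 at a filter of 5 TPM and 4 with no fold limit. The 1 DEG between GFPhi and GFPmed became 0 at that filter and with only the 2 groups, 2 with limma-voom and with exonic length, 3 with no fold limit and 0 to 1 with 1 sample left out. The changes between gene pairs kept their sign in every alternative run and ranged from 1.37 to 1.64 for Cblb minus Cbl, 1.67 to 2.65 for Nt5e minus Entpd1, 0.048 to 0.34 for Dgka minus Dgkz and 0.19 to 0.51 for Ubash3b minus Ubash3a. The 8 DEG in the pathway lists became 5 with quantile scaling, 28 with no fold limit and 5 to 9 with 1 sample left out.

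Samples of different groups share replicate numbers, and deviations from the group means correlated between same-numbered samples at 0.012 to 0.225, over 0.1 in 1 of 9 pairs. The mean of these correlations was 0.061, against -0.030 over the 18 pairs with other numbers. Not every sample correlated best with its own number, and the numbers were not taken as pairs. With the replicate block there were 470, 5 and 160 DEG between GFPhi and GFPlo, GFPmed and GFPlo, and GFPhi and GFPmed, and 2, 0 and 0 of the 8 genes among them. With the block the calls of Nt5e, Cblb and Dgka between GFPhi and GFPmed were lost (limma adjusted p = 0.0561, 0.0958 and 0.0552), and the 4 between GFPhi and GFPlo were kept.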
